A study of Mus musculus with 28 samples.

Results

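The DNA replication machinery was taken as 48 genes, each matched by its symbol to 1 row of the deposited expression table, which lists 55450 genes. The rule uses symbols and no level, but it was set with earlier results of these data known. RNA-seq covered 12 libraries made from C10, a Pre-B line of the mouse derived from HAFTL cells. All libraries carry the CEBPalpha-ER transgene, a C/EBPα protein joined to the hormone-binding part of the estrogen receptor, so that β-estradiol moves it into the nucleus. There were 3 biological replicates at each of 0h, 1h, 12h and 48h. The 0h cells were uninduced, and the others had received 100 nM β-estradiol, 10 nM IL-3 and CSF-1 (concentration not given in the labels). The line is a transformed one that holds the transgene at every time point, and no cells without the transgene or treated with the factors alone were analysed here. Promoter Capture Hi-C (PCHi-C), which lists the DNA fragments that contact captured promoter fragments, was read at the same 4 time points.

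Replication of a chromosome is prepared in G1, when the origin recognition complex (ORC), Cdc6 and Cdt1 load the MCM2-7 helicase onto DNA. In S phase, Cdc7 and its partner Dbf4, with Cdc45, Mcm10 and the GINS complex, turn the loaded helicase into a moving one. Polymerase α with primase then starts each strand, polymerases δ and ε extend it on the sliding clamp Pcna, and Fen1 and Lig1 join the pieces of the lagging strand. Many of these genes are textbook targets of the E2F factors, which switch on transcription before S phase in dividing cells.

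The promoters are shown first because they held E2F motifs at a share well above that of the other genes tested. RefSeq promoters (GRCm38.p6, 250 bases before to 50 bases from the start on, position 0 being the start) were matched for 40 members, which gave 49 promoters. Mcm4, Gins1, Gins2, Gins4, Gmnn, Pole, Prim2 and Rfc2 were not matched. An E2F motif was any of TTTCCCGC, TTTCGCGC, TTTGCCGC and TTTGGCGC on either strand. It was found in 15 of the 49 member promoters (30.6%), against 3.87% of the 12114 promoters of genes tested and 2.26% of all 32851 promoters. By gene this was 15 of 40 members, or 37.5%. Of 21 matches, which may overlap each other, 14 began no more than 100 bases before the start. The 6 promoters below are of genes with 3 kinds of change described further on: Mcm3, Mcm6 and Cdc6 had fallen by 12h, Orc3 did not pass the test at 12h or 48h against 0h, and Tyms and Top2a had their larger change after 12h. Capitals mark the E2F motif, read 5′ to 3′ on the strand of the gene.
Mcm3, chr1:20820263-20820562, minus strand: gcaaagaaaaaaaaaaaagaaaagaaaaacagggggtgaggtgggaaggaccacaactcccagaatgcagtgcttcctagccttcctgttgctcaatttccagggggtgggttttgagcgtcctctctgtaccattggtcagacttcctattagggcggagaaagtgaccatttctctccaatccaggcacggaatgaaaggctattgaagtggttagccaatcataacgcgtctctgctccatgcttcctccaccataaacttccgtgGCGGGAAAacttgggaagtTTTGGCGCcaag
Mcm6, chr1:128359656-128359955, minus strand: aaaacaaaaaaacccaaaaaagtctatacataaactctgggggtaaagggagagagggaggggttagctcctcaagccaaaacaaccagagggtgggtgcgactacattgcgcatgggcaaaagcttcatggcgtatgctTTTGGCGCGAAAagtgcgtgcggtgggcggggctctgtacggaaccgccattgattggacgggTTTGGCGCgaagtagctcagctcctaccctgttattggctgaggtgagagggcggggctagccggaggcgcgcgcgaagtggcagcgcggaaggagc
Cdc6, chr11:98907901-98908200, plus strand: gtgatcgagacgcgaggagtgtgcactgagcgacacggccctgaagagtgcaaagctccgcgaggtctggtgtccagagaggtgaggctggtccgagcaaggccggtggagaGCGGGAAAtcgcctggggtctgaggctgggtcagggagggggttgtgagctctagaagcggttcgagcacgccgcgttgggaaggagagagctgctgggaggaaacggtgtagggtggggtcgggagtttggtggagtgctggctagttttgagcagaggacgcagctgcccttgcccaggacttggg
Orc3, chr4:34614893-34615192, minus strand: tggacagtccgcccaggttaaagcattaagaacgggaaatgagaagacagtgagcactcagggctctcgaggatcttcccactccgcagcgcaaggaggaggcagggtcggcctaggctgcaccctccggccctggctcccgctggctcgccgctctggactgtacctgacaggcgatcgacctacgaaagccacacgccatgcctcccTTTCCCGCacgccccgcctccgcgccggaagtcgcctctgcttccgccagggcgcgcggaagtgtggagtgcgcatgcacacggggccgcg
Tyms, chr5:30073576-30073875, minus strand: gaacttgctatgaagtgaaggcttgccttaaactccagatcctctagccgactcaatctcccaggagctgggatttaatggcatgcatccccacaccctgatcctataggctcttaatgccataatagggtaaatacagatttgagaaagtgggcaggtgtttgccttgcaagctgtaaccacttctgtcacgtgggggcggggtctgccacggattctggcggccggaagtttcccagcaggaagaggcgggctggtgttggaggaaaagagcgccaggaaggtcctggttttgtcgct
Top2a, chr11:99024140-99024439, minus strand: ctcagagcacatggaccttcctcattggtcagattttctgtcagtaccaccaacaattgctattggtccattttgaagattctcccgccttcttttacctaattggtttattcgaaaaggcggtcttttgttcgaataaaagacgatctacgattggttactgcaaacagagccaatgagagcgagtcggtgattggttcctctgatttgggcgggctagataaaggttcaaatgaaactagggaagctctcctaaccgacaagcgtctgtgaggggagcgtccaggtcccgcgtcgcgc

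Mcm3 held 2 matches, beginning at positions 19 and 38, and Mcm6 held 3, at -110, -106 and -47, of which the first 2 overlap on opposite strands. Cdc6 held 1 match at -138. Orc3 also held 1, at -41, while Tyms and Top2a held none in this window. Members not shown did not keep to this split. Mcm5 and Orc1, which with 0.1 added had their larger change after 12h, held matches. Mcm2, Pcna, Prim1 and Tk1, which had their larger change by 12h, held none. The median log2 fold change at 48h was -4.14 over the 15 members with a match (from -7.01 to -0.52) and -3.57 over the 25 without (from -6.38 to 0.14), so that the ranges overlapped widely. At 12h the medians were -2.43 and -1.71. These values are a description across genes with no test. With the first T of each motif left out, a core of 7 letters, the share of member promoters was 57.1% against 16.1% for the genes tested. The CCAAT box, a common promoter element, was in 53.1% of member promoters against 38.1%, and the CHR element (TTTGAA), known from genes of G2 and mitosis, was in 18.4% against 13.1%. These last motifs were chosen after the data were seen. The Top2a promoter held 6 CCAAT boxes and 2 CHR elements.

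**Figure D1:**
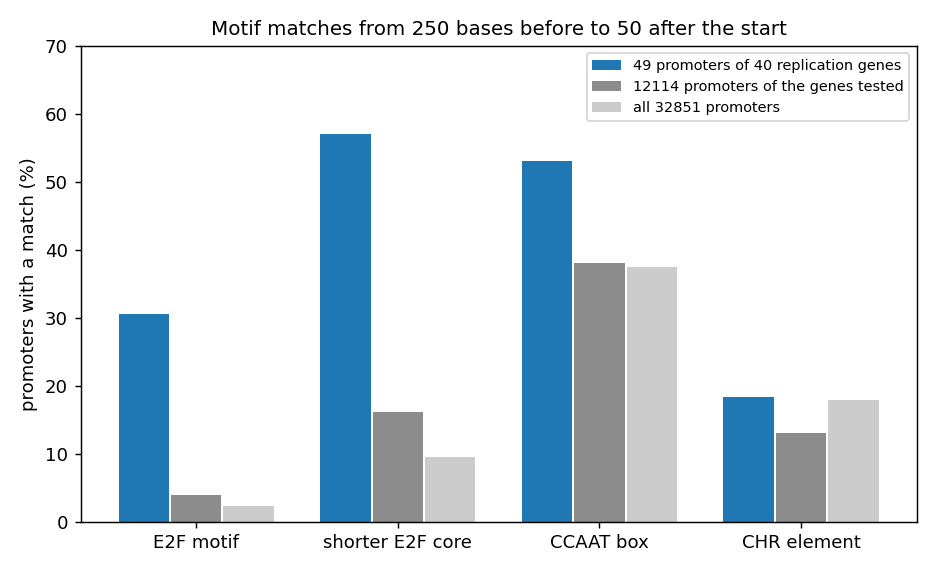
Share of promoters with at least 1 match (%, vertical axis) to each of 4 motifs, for the 49 promoters of 40 replication genes, the 12114 promoters of the genes tested and all 32851 promoters of the table. The E2F motif stood in 30.6% of the replication gene promoters, against 3.87% and 2.26%.

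The labelled identities were checked against markers. TPM give the abundance of a gene's transcripts, corrected for length, as a share of all transcripts in the library. The summed TPM of 10 Pre-B cell markers lay between 301 and 343 at 0h and between 27.6 and 39.3 at 48h, and that of 9 macrophage markers between 7.4 and 10.1 at 0h and between 254 and 332 at 48h. None of 5 T cell, 4 erythroid and 3 fibroblast markers had a summed level above 0.18 TPM, but the summed level of 3 endothelial markers lay between 4.65 and 7.72. Of that sum Pecam1, which many leukocytes also carry, held 4.62 to 7.42 TPM, while Cdh5 reached at most 0.48 and Kdr was at 0 in every library. In each library the 2 most abundant genes, of a ribosomal RNA locus, held 70.3% to 82.9% of the TPM, and TPM keep no record of depth. The libraries of replicate 3 stood apart, with the lowest such share and the most genes above 0 at each of the 4 time points, and the labels number them after all others. Without them 2 members were higher at 1h, 39 lower at 12h, 44 lower at 48h and 34 lower at 48h against 12h, to be read beside the counts from all libraries given for each comparison. The median log2 fold change of the 16415 genes tested against 0h was 0.59 (1h), 0.34 (12h) and -0.18 (48h), and for 48h against 12h it was -0.62. Each count is therefore also given after median-of-ratios scaling, which puts the typical gene of every library at the same level and left these medians between -0.01 and 0.07. The test was limma on log2(TPM + 0.1) with Benjamini-Hochberg adjustment over all genes tested, and a gene was called at an adjusted p under 0.05. Fold changes on this scale can understate the change of genes at low TPM. The 1h, 12h and 48h comparisons share the 0h libraries. In bulk RNA, fewer cells in S phase and less RNA per such cell cannot be told apart.

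Over all 48 members together, the summed level was 476 ± 40.1 TPM in uninduced cells, 650 ± 54.0 after 1h, 134 ± 24.4 after 12h and 48.5 ± 1.89 after 48h (SD, n = 3). The rise at 1h was not held across the scaling, after which the 1h sum was 86.4% of the 0h sum. The 48h sum was 10.2% of the 0h sum, or 13.7% after the scaling. All 48 members passed the filter on low values, a mean of 0.1 TPM. At 12h, 40 members were lower than at 0h and 0 were higher, where 7.82% of all genes tested were lower and 22.3% higher (limma; also at an unadjusted p under 0.05, 0 members were higher and 41 lower). By 48h, 46 were lower and 0 higher, against 27.2% and 15.9% of all genes (limma; 0 higher and 46 lower at an unadjusted p under 0.05). The median log2 fold change of the members was -1.79 at 12h and -3.57 at 48h. After the scaling, 42 members were lower at 12h (14.5% of all genes were lower and 16% higher) and 43 at 48h (22% lower and 24.5% higher), still with 0 higher (also 0 at an unadjusted p under 0.05). In 47 members every 48h library lay below every 0h library, as it did in 30.8% of all genes tested.

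**Figure D2:**
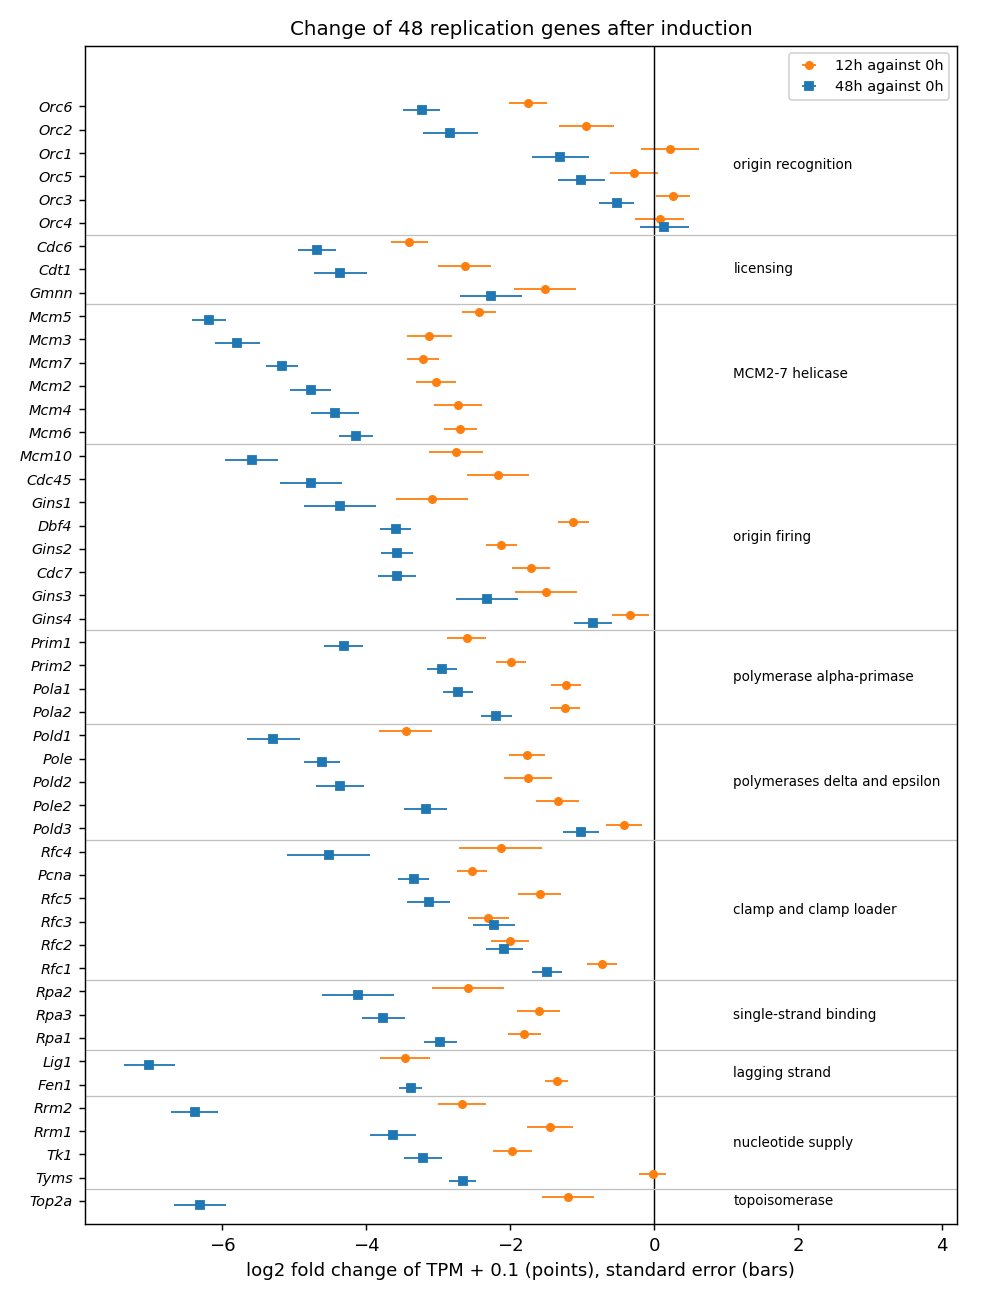
log2 fold change (horizontal axis, on TPM + 0.1) of the 48 members, grouped by role, at 12h (circles) and 48h (squares) against 0h. Bars are the standard error of the limma fit with 3 libraries per time point. Lig1 (-7.01), Rrm2 (-6.38) and Top2a (-6.31) lie farthest to the left at 48h, and Orc4 (0.14) lies at 0.

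At 1h, 43 of the 48 members had a log2 fold change above 0 on the deposited TPM, as the typical gene did. On the TPM as deposited 7 were higher (Cdc7, Orc3, Pola1, Pold3, Pole, Fen1 and Tyms) and 0 lower, against 24.1% and 1.41% of all genes tested (limma; 16 and 0 at an unadjusted p under 0.05). Their median of 0.45 was under that of all genes, 0.59, and 29 of 48 lay below it. Scaled values gave 0 higher and 1 lower (Prim2, log2 fold change -0.72, adjusted p = 0.0289, limma), against 5.42% and 4.92% of all genes. At an unadjusted limma p under 0.05 the scaled values gave 0 members higher and 7 lower. The scaled member median was -0.18, and 36 of 48 members lay below the scaled median of all genes, 0.02. A direction at 1h is thus not held across the scaling. Pold3, the third subunit of polymerase δ, had the smallest adjusted p of the 7. It stood at 7.07, 4.33 and 5.04 TPM at 0h and at 13.25, 12.61 and 9.48 at 1h, without overlap (log2 fold change 1.11, SE 0.25, adjusted p = 0.00885, limma). After the scaling its change was 0.45 (adjusted p = 0.25, limma).

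Origin recognition had more members not called than any other role at 12h and 48h. Of the 6 ORC genes, whose products mark origins, 1 was lower at 12h and 4 at 48h, and after the scaling 2 and 2. Orc4, an ATP-binding subunit (chromosome 2, 48902824 to 48950277, GRCm38), had 7.43, 4.74 and 4.22 TPM at 0h, 6.1, 4.92 and 5.93 at 12h, and 9.14, 6.9 and 3.14 at 48h. The 0h, 12h and 48h libraries overlapped one another, and the log2 fold change at 48h was 0.14 (SE 0.34, adjusted p = 0.785, limma). At 1h Orc4 had 8.4, 8.22 and 7.71 TPM, above every 0h library but not called (0.60, adjusted p = 0.207, limma). After the scaling its 1h change was -0.05. Its 48h libraries spread widely, and the sign at 48h turned to -0.18 without 48h replicate 1 and to -0.02 without 0h replicate 3. Orc3 went from 7.52, 6.88 and 5.51 TPM at 0h to 4.6, 4.05 and 5.09 at 48h. No 48h library reached the lowest 0h library, but the change of -0.52 did not pass the test (SE 0.24, adjusted p = 0.109, limma). Orc6, the subunit least tied to the rest of the complex, fell most among the 6. It had 5.2, 5.27 and 3.72 TPM at 0h, 1.13, 1.13 and 1.79 at 12h and 0.31, 0.54 and 0.4 at 48h, well apart at each time (log2 fold change -3.23, SE 0.26, adjusted p = 1.43e-06, limma). The ratio of Orc4 to Orc6 TPM was 1.15 ± 0.265 in uninduced cells, 4.36 ± 1.04 after 12h and 16.7 ± 11.3 after 48h (SD, n = 3). Orc1, the large ATPase subunit, and Orc5 had log2 fold changes of -1.30 and -1.01 at 48h on the deposited TPM, but neither passed after the scaling (-0.96 and -0.65). Orc2 shares 29.8% of its exon bases with Nif3l1 on the other strand, and the library kit named in the labels does not mark strand.

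The licensing factors fell early. Cdc6, the ATPase that joins ORC to load the helicase, had 3.66, 3.67 and 2.9 TPM at 0h and 0.17, 0.28 and 0.25 at 12h. At 48h it was listed at 0, 0.04 and 0.08. All 12h values lay far below those of 0h, and the log2 fold change was -3.40 at 12h (SE 0.26, adjusted p = 3.74e-06, limma) and -4.68 at 48h (adjusted p = 1.03e-07). Cdt1, which brings the helicase to the origin, changed by -2.63 at 12h and -4.36 at 48h. Gmnn encodes geminin, the inhibitor of Cdt1, and changed least of the 3. Its libraries held 5.48, 2.41 and 3.11 TPM at 0h, 0.77, 0.93 and 2.03 at 12h and 1.13, 0.62 and 0.35 at 48h. The 12h and 48h libraries overlapped each other but not those of 0h (log2 fold change -1.52 at 12h, adjusted p = 0.0205, and -2.27 at 48h, adjusted p = 0.0011, limma). Its call at 12h was lost without 0h replicate 1 (adjusted p = 0.0775), 12h replicate 1 (0.0762) or 12h replicate 2 (0.0667).

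All 6 genes of the MCM2-7 helicase were lower at 12h and again at 48h, under both scales. Their summed level was 122 ± 7.65 TPM in uninduced cells, 16.3 ± 3.02 after 12h and 3.62 ± 0.243 after 48h (SD, n = 3), so that 13.4% of the 0h level was left at 12h and 2.97% at 48h. Mcm5 had the largest change of the 6 at 48h and the smallest at 12h. It stood at 17.28, 14.35 and 15.11 TPM at 0h, 25.02, 22.48 and 23.21 at 1h, 2.26, 2.24 and 4.31 at 12h and 0.14, 0.11 and 0.1 at 48h. No time point overlapped another, and the log2 fold change was -2.43 at 12h (SE 0.24, adjusted p = 2.13e-05, limma) and -6.18 at 48h (SE 0.24, adjusted p = 6.68e-09). Mcm6 had the smallest change at 48h, from 26.45, 22.34 and 19.19 TPM at 0h to 2.49, 4.09 and 3.81 at 12h and 1.34, 0.87 and 1.41 at 48h. Its change of -2.69 at 12h was close to that of Mcm5, whereas at 48h it reached only -4.14 (adjusted p = 1.01e-07, limma). The 6 subunits, which form one ring in the protein complex, thus lay between -3.21 and -2.43 at 12h and between -6.18 and -4.14 at 48h. Those differences between subunits were not tested.

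Of the 8 genes of origin firing, 7 were lower at 12h and 8 at 48h (7 and 7 after the scaling). Mcm10, which helps to activate the helicase, fell most. Its TPM were 9.71, 6.5 and 5.23 at 0h, 0.56, 1.2 and 1.22 at 12h, and 0, 0.12 and 0.04 at 48h (log2 fold change -5.59, SE 0.37, adjusted p = 3.01e-07, limma). Cdc45, which travels with the helicase, changed by -2.17 at 12h and -4.76 at 48h. Dbf4, the activator of the kinase Cdc7, changed by -1.12 at 12h and Cdc7 by -1.71, and at 48h the 2 stood at -3.59 and -3.57. The 4 GINS genes, whose products form one complex, had unequal values at 48h of -4.36 (Gins1), -3.57 (Gins2), -2.32 (Gins3) and -0.85 (Gins4). Gins4 had 2.69, 2.44 and 3.2 TPM at 0h, 1.61, 2.28 and 2.82 at 12h and 1.98, 1.58 and 1.05 at 48h. Only the 48h libraries lay wholly below those of 0h (SE 0.26, adjusted p = 0.0191, limma). After the scaling the 48h change was -0.46 and did not pass (adjusted p = 0.198, limma). On the deposited TPM it did not pass without 0h replicate 3 (adjusted p = 0.0687, limma) or 48h replicate 3 (0.0705). Nor did it without replicate 2 (0.11) or replicate 3 (0.156) of every time point. The ratio of Gins4 to Gins2 TPM went from 0.506 ± 0.0754 in uninduced cells to 1.86 ± 0.300 after 12h and 4.34 ± 1.89 after 48h (SD, n = 3), with no overlap between 0h and either later time. Gins2 shares 67.3% of its exon bases with Gse1 on the other strand, and reads of the 2 genes cannot be told apart there.

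**Figure D3:**
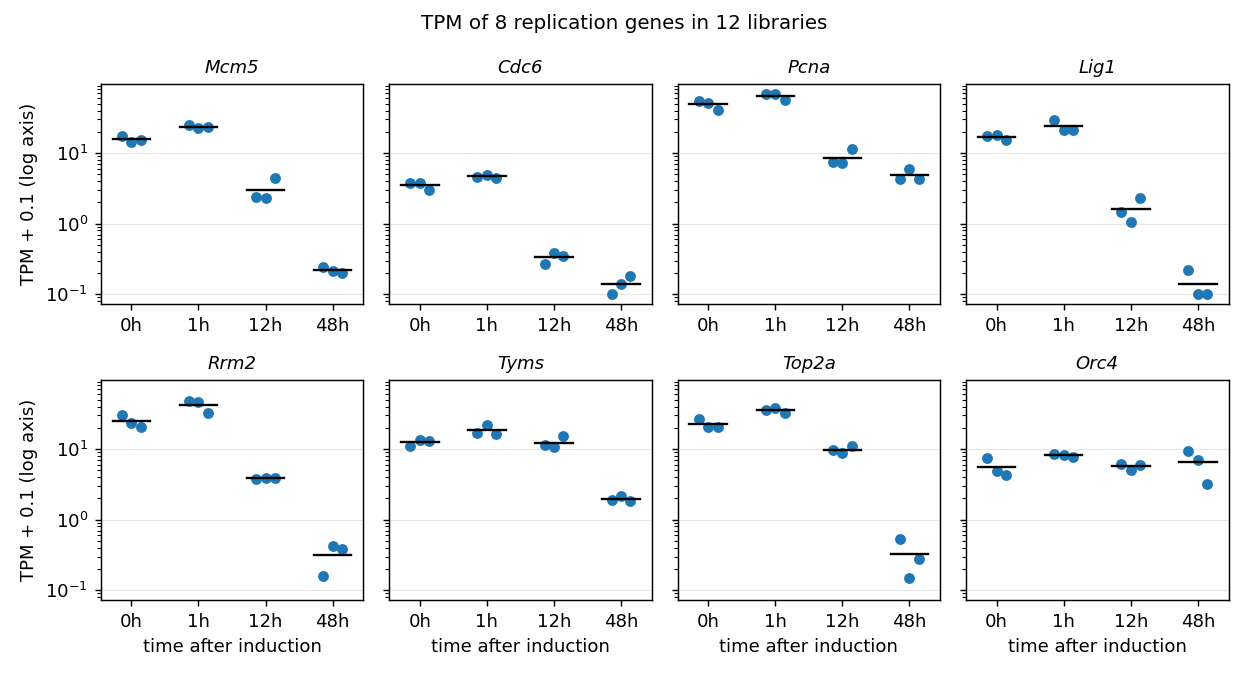
TPM + 0.1 (log axis) of 8 members in each of the 12 libraries by time after induction. Points are libraries and lines are means of 3. Mcm5, Cdc6, Pcna, Lig1 and Rrm2 were already low at 12h, Tyms at 12h lay at its 0h level, and the libraries of Orc4 at 12h and 48h overlapped those of 0h.

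Polymerase α-primase, which lays down the RNA-DNA primers, had all 4 genes lower at both times. Prim1, the catalytic primase subunit, changed most, from 4.87, 2.93 and 4.28 TPM at 0h to 0.46, 0.69 and 0.57 at 12h and 0.16, 0.07 and 0.09 at 48h (log2 fold change -4.31, SE 0.27, adjusted p = 2.37e-07, limma). Pola2, the accessory subunit, changed least, from 10.38, 9.72 and 8.48 TPM at 0h to 3.33, 5.51 and 3.37 at 12h and 2.21, 1.89 and 1.91 at 48h (log2 fold change -2.19, SE 0.21, adjusted p = 6.01e-06, limma). Both genes had separate libraries at 0h, 12h and 48h.

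Among the 5 genes of polymerases δ and ε, 4 were lower at 12h and 5 at 48h. Pold1, the catalytic subunit of polymerase δ, went from 10.1, 12.6 and 13.21 TPM at 0h to 1.21, 0.43 and 1.8 at 12h and 0.26, 0.21 and 0.16 at 48h, each time point below the one before (log2 fold change -5.29 at 48h, SE 0.37, adjusted p = 5.61e-07, limma). Pole, the catalytic subunit of polymerase ε, changed by -1.77 at 12h and -4.61 at 48h. Pold3 stood at 3.07, 4.47 and 4.56 TPM at 12h and at 3.31, 2.48 and 2.19 at 48h. Its 12h libraries overlapped those of 0h (log2 fold change -0.42, adjusted p = 0.228, limma) and those of 48h did not (-1.01, adjusted p = 0.00619). At 12h the call was reached after the scaling (-0.75, adjusted p = 0.0271). The 48h call was lost without replicate 2 of every time point (adjusted p = 0.0513, limma). Pold3 per Pold1 TPM was 0.475 ± 0.196 at 0h and 12.7 ± 0.939 at 48h (SD, n = 3), without overlap.

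The sliding clamp and its loader had all 6 genes lower at 12h and at 48h. Pcna, the ring that tethers polymerases, was the most abundant member on the TPM scale, with 54.03, 51.81 and 40.67 TPM at 0h. It fell to 7.3, 7.02 and 11.28 at 12h and to 4.24, 5.75 and 4.25 at 48h (log2 fold change -2.53 at 12h, adjusted p = 7.26e-06, and -3.34 at 48h, adjusted p = 2.67e-07, limma). From 12h to 48h it was called lower on the deposited TPM (-0.81) and not after the scaling (-0.08). Rfc2 and Rfc3, small loader subunits, were lower at 12h and not called between 12h and 48h. Rfc3 had 6.18, 7.1 and 5.97 TPM at 0h, 1.04, 0.9 and 1.91 at 12h and 1.84, 1.09 and 1.07 at 48h. Its 12h and 48h libraries overlapped, and the difference between them was 0.08 (adjusted p = 0.875, limma). After the scaling Rfc2 was the one member called higher at 48h than at 12h (0.66). Rfc1, the large loader subunit, changed least, from 8.64, 8.84 and 7.42 TPM at 0h to 5.83, 3.53 and 5.95 at 12h and 2.68, 2.71 and 3.29 at 48h. Its call at 12h (-0.72, adjusted p = 0.0212, limma) was lost without 0h replicate 1 (adjusted p = 0.0567), 0h replicate 2 (0.07) or 12h replicate 2 (0.0739). Rfc4 had 0.5, 1.52 and 0.69 TPM at 12h and was listed at 0, 0 and 0.43 at 48h, after 4.93, 3.74 and 3.24 at 0h (log2 fold change -4.52, SE 0.58, adjusted p = 6.4e-05, limma). Its 12h call (adjusted p = 0.0174, limma) was lost without 0h replicate 1 (0.0561), 12h replicate 1 (0.065) or 12h replicate 3 (0.0538). The fit takes 1 spread per gene from all time points, so the uneven 48h libraries of Rfc4 enter these p-values too.

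The 3 RPA genes, whose products coat single-stranded DNA, were lower at both times, with Rpa1 at -2.97 and Rpa2 at -4.11 at 48h. Rpa1 had 13.69, 16.34 and 11.95 TPM at 0h, 3.99, 3.62 and 4.17 at 12h and 1.23, 1.54 and 2.53 at 48h. Rpa2 had 7.97, 6.53 and 8.33 TPM at 0h, 0.98, 0.53 and 2.91 at 12h and 0.14, 0.55 and 0.46 at 48h. For Rpa1 no time point from 0h to 12h to 48h overlapped the next, whereas the 12h and 48h libraries of Rpa2 touched, at 0.53 and 0.55 (SE 0.50, adjusted p = 4.15e-05 at 48h against 0h, limma).

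Both lagging strand genes were lower. Lig1, the ligase that seals the joined pieces (chromosome 7, 13277283 to 13311433), had the largest change of all members. It stood at 17.38, 17.7 and 15.16 TPM at 0h, 29.65, 21.02 and 20.81 at 1h and 1.34, 0.97 and 2.23 at 12h. At 48h it was listed at 0.12, 0 and 0 (log2 fold change -7.01, SE 0.35, adjusted p = 3.54e-08, limma), a size that depends on the 0.1 added. Fen1, the flap nuclease, had 6.11, 6.15 and 5.91 TPM at 0h, 2, 2.42 and 2.54 at 12h and 0.49, 0.48 and 0.51 at 48h, with little spread at any time (log2 fold change -3.38, SE 0.16, adjusted p = 2.28e-08, limma). Of its exon bases 78.8% are shared with the antisense gene Gm10143, which had a mean of 0.212 TPM.

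The 4 genes of nucleotide supply were lower at 48h, 3 of them already at 12h, and so was Top2a at both times. Tyms, thymidylate synthase, which makes dTMP (chromosome 5, 30058202 to 30073617), stood at 10.92, 13.25 and 12.85 TPM at 0h, 16.87, 21.69 and 16.16 at 1h and 11.14, 10.6 and 15.09 at 12h. The 12h libraries spanned those of 0h, with a log2 fold change of -0.02 (SE 0.19, adjusted p = 0.964, limma). After the scaling the 12h change was -0.35 and did not pass either (adjusted p = 0.138, limma). At 48h Tyms stood at 1.77, 2.07 and 1.76 TPM, far below every earlier library (-2.66 on the deposited TPM, SE 0.19, adjusted p = 5.12e-07). Rrm2, the S phase subunit of ribonucleotide reductase, had 30.33, 23.12 and 20.61 TPM at 0h, 3.62, 3.85 and 3.77 at 12h and 0.06, 0.32 and 0.28 at 48h (log2 fold change -6.38, SE 0.33, adjusted p = 4.52e-08, limma). Rrm1, its partner, changed by -1.45 at 12h and -3.63 at 48h, and Tk1, the thymidine kinase of S phase, by -1.97 and -3.21. Top2a, the topoisomerase that untangles sister DNA (chromosome 11, 98992943 to 99024189), had 26.66, 20.43 and 20.44 TPM at 0h, 9.63, 8.62 and 11.01 at 12h and 0.44, 0.05 and 0.18 at 48h. Its libraries were separate at all 3 times, and its log2 fold change was -1.19 at 12h (SE 0.36, adjusted p = 0.026, limma) and -6.31 at 48h (adjusted p = 1.02e-07). The call at 12h was lost when any of 0h replicates 1, 2 and 3 or of 12h replicates 1 and 2 was left out (adjusted p from 0.0518 to 0.0816, limma). It was also lost without replicate 1 (0.0585), replicate 2 (0.0687) or replicate 3 (0.119) of every time point. The SE and p-values at 12h rest on 1 spread per gene, taken from all time points. For Top2a that spread includes the 48h libraries, which lay near the 0.1 added and far apart on the log scale. Lost calls at 12h are thus not a measure of the 0h and 12h spread alone. Per Mcm2 TPM, Top2a went from 0.972 ± 0.293 in uninduced cells to 3.65 ± 1.51 after 12h and 0.251 ± 0.187 after 48h, and Tyms from 0.523 ± 0.0745 to 4.50 ± 1.57 and 2.57 ± 1.16 (SD, n = 3). A ratio within a library shows unequal change only.

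To see when the change took place, 48h was also set against 12h. On the deposited TPM 39 members were lower and 0 higher (31.7% of all genes tested were lower and 4.1% higher, and at an unadjusted limma p under 0.05 the members were 42 lower and 0 higher), with a median of -1.63. After the scaling 30 were lower and 1 higher, against 11.9% and 10.5%. A set of 35 members was called lower in all of 12h against 0h, 48h against 12h and 48h against 0h, and 29 after the scaling. Tyms, Orc1 and Orc2 were called lower at 48h against both 0h and 12h but not at 12h against 0h. After the scaling only Tyms had this pattern, since Orc2 was then called at 12h as well (-1.27, adjusted p = 0.0201, limma) and Orc1 in none of the 3. The first 12h carried the larger part of the log2 change under both scales in 23 members, among them Mcm2, Mcm3, Mcm4, Mcm6, Mcm7, Cdc6, Cdt1 and Pcna. With 0.1 added, the later part was larger under both scales in 7, which were Mcm5, Dbf4, Orc1, Pole, Rrm2, Tyms and Top2a. In the other 18 the scale decided. The split also depends on the 0.1 added, since some 48h levels lay near it. Mean TPM at 48h were 0.117 for Mcm5, 0.0967 for Pole and 0.22 for Rrm2. With a pseudocount of 1 on the deposited TPM, the first 12h carried the larger part in Mcm5. The split of the other members at that setting is not given here. These shares of the change come from fitted values and were not tested.

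**Figure D4:**
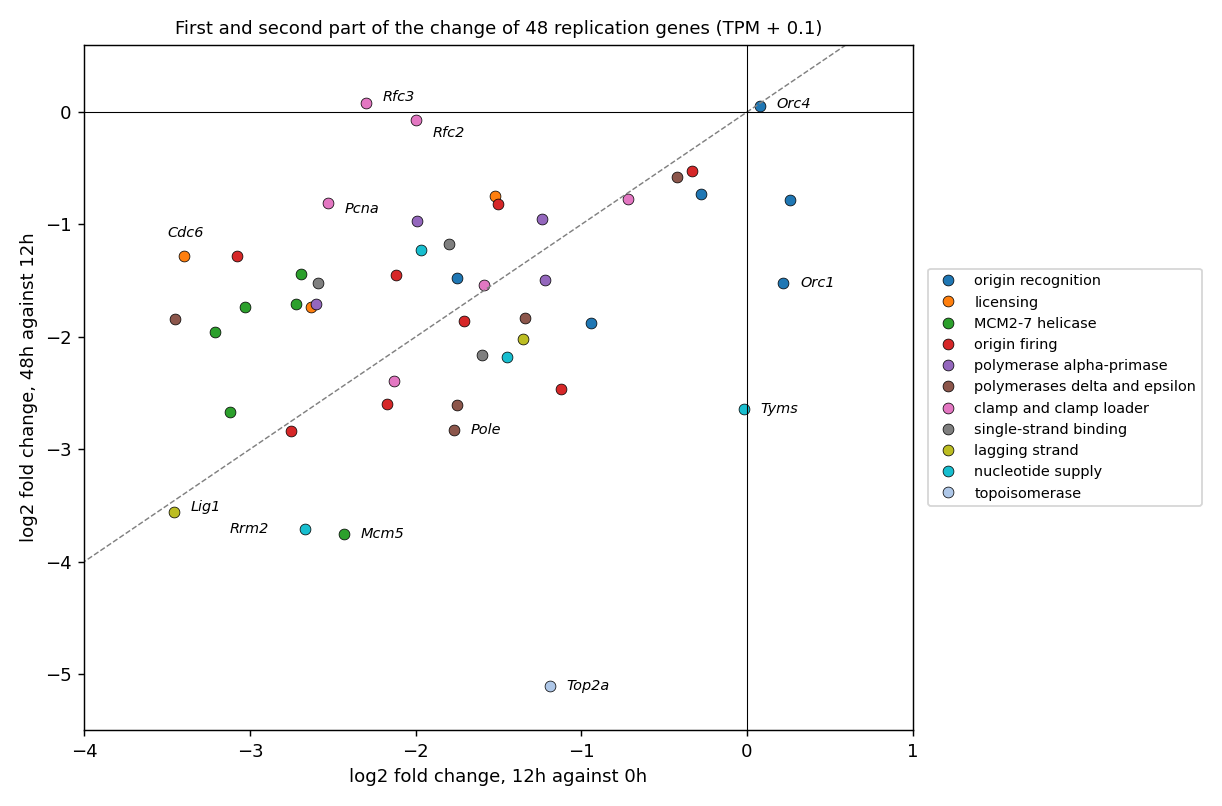
log2 fold change at 48h against 12h (vertical axis) set against that at 12h against 0h (horizontal axis) for the 48 members on TPM + 0.1, coloured by role. On the dashed line both are equal. Top2a (-1.19 and -5.11) and Tyms (-0.02 and -2.64) lie far below it, and Rfc3 (-2.30 and 0.08) lies far above.

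A list of 35 other replication genes (checkpoint, chromatin assembly, nucleotide and repair factors of the fork) was measured beside the members. Of these 26 were lower at 12h (74.3%) and 33 at 48h (94.3%), with 0 higher (limma). Over all genes tested 7.82% and 27.2% were lower, and 22.3% and 15.9% higher. After the scaling 31 and 32 of the list were lower, against 14.5% and 22% of all genes. The median of the list at 48h was -3.02 on the deposited TPM. Uhrf1, which guides maintenance methylation of new DNA, went from 26.74, 21.97 and 22.45 TPM at 0h to 0.11, 0.21 and 0.31 at 48h (log2 fold change -6.31, SE 0.27, adjusted p = 1.38e-08, limma). Dut, which clears dUTP, went from 9.96, 11.68 and 10.47 TPM to 0, 0.19 and 0.04 (-6.08, SE 0.49, adjusted p = 1.49e-06). The 2 that were not called at 48h were Timeless, of the fork protection complex (-0.06), and Mcm9, a helicase of repair (-0.41), both named after their values were seen.

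In 13 relatives that act outside S phase or in mitochondria, 3 were higher and 3 lower at 48h (23.1% each, where 15.9% of all genes tested were higher and 27.2% lower), with a median of -0.38, and after the scaling 3 higher and 2 lower. Samhd1, which breaks down dNTPs, rose from 3.78, 4.84 and 3.46 TPM at 0h to 11.31, 11.76 and 11.51 at 12h and 36.47, 45.53 and 39.56 at 48h, with every time point from 0h to 12h to 48h apart (log2 fold change 3.31, SE 0.17, adjusted p = 4.82e-08, limma). Dck, the deoxycytidine kinase of the salvage pathway, stood at 3.19, 2.1 and 2.22 TPM at 0h and was highest at 1h, with 13.98, 13.81 and 10.1 (log2 fold change 2.30, and 1.65 after the scaling). At 12h it had 2.87, 3.92 and 4.17, overlapping 0h, and at 48h 8.36, 9.62 and 7.48 (1.74, SE 0.22, adjusted p = 6.19e-05). Lig3, a ligase of repair and mitochondria, was lower at 48h (-1.88, adjusted p = 6.66e-05, limma), as was the mitochondrial polymerase Polg (-1.98, adjusted p = 0.000825). Counterparts of S phase members had other values than those members. Top2b, the topoisomerase II that resting cells also hold, had 18.26, 13.42 and 9.21 TPM at 0h, 28.68, 29.12 and 29.41 at 12h and 14.81, 17.15 and 10.58 at 48h, so that only 12h stood apart (1.14 at 12h, and 0.08 at 48h with adjusted p = 0.864, limma). Rrm2b, the small reductase subunit used outside S phase, had a change of -1.12 at 48h (SE 0.49, adjusted p = 0.0855), and Tk2, the mitochondrial thymidine kinase, one of 0.56 (SE 0.46, adjusted p = 0.363). Tk2 per Tk1 TPM was 0.141 ± 0.0498 at 0h and 2.23 ± 0.916 at 48h (SD, n = 3).

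PCHi-C was used to count listed contacts of the promoter fragments. Each time point has 1 list merged from 2 replicates, so there is no replicate error and no test. The 0h list gives a score per contact and the later lists whole numbers in an unnamed unit. Whether the same cut-off made all 4 lists could therefore not be checked from them, which limits comparisons of 0h with later counts. A fragment that held a transcript start was found among the baits for 47 members, all but Tyms. The median number of interactions per member went 8, 11, 7 and 7 over 0h, 1h, 12h and 48h, and over the 11817 genes tested with a bait it was 8, 7, 7 and 7. The means were 16.5, 16.2, 13.3 and 13.4 for the members and 12.9, 12.8, 11.7 and 12.1 for all. At 48h, 31 of 47 members (66%) had fewer interactions than at 0h and 11 (23.4%) had more, where 49% of all genes had fewer and 39.7% more. Of the 773 member interactions listed at 0h, 49.8% were listed at 48h as well, against 55.9% for all genes, and 17.2% of all that were ever listed stood in all 4 lists, against 18.9%.

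The counts of single members moved more than the median. Pole had 28, 29, 19 and 3 interactions in time order, from baits that also hold the start of Pxmp2. Rrm2 had 39, 47, 37 and 20, and Pold1, whose baits hold the start of Spib as well, had 22, 14, 7 and 7. A bait of Pold1 (chromosome 7, 44525555 to 44536260) covers the 3′ end of the gene. The Pold1 counts are therefore not those of its 5′ start alone. In the other direction, Pold3 had 3, 0, 7 and 31 and Orc4, which shares its bait with Mbd5, had 32, 17, 29 and 53. In RNA at 48h Orc4 was not called and Pold3 was lower. Rpa3, whose bait also holds the starts of Umad1 and Gm45062, had the most at 0h, with 76, 63, 52 and 60 over time. Rrm1 had 51, 69, 51 and 42. The baits of Cdc6 and Top2a, neighbours on chromosome 11, contacted each other in all 4 lists, the only pair of members to be listed together at any time. A bait of Top2a (98989051 to 99001474) likewise covers the 3′ end of its gene. For Lig1, which fell most in RNA, the numbers were 6, 5, 5 and 3, too few to read a change from.

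**Figure D5:**
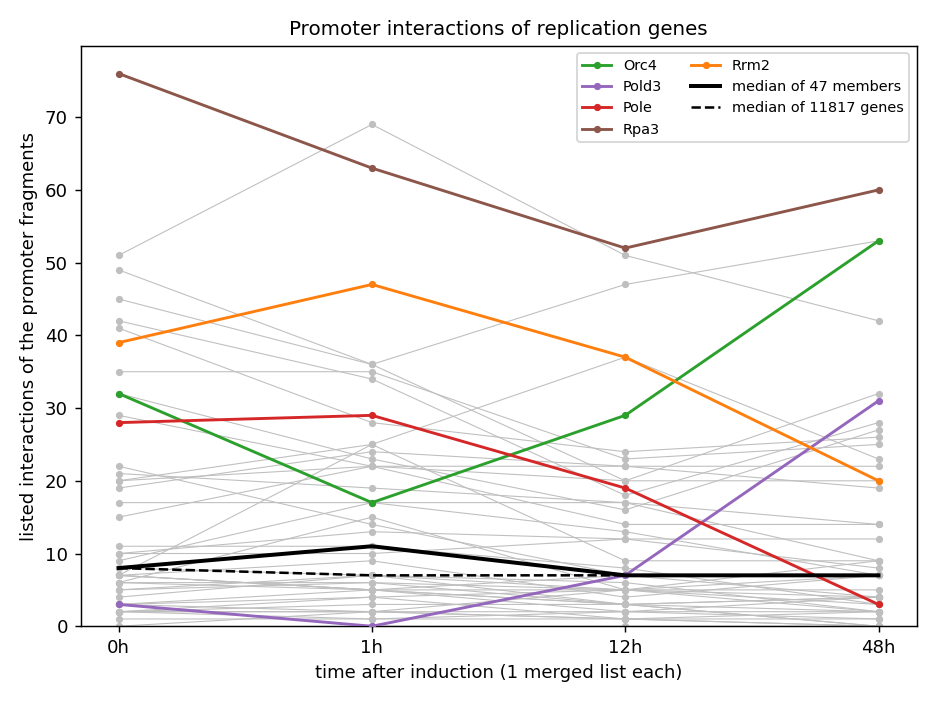
Listed PCHi-C interactions (vertical axis) of the promoter fragments of 47 members at each time after induction, 1 merged list per time. Grey lines are single members, coloured lines the 5 members named in the legend, the solid black line their median (8, 11, 7 and 7) and the dashed line the median of 11817 genes (8, 7, 7 and 7).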

How the data were processed

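RNA-seq of 12 libraries (3 biological replicates at each of 4 time points) and 4 merged Promoter Capture Hi-C lists were used, and Hi-C data were not used here. Per the labels, the authors used Trim Galore 0.6.2, FastQC, HISAT2 2.1.0 and RSEM with mm10, and deposited TPM per gene. TPM keep no read depth, so no counting error is given. In the deposited PCHi-C list of 0h each contact has a CHiCAGO score, while the 3 later lists give whole numbers in a unit that is not named. Neither value was used, except the score in 1 alternative. The lists were made by the authors from 2 merged replicates each.

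Genes were kept at a mean of 0.1 TPM or more, which left 16415, and fitted with limma 3.58.1 (R 4.3.3) on log2(TPM + 0.1), all 12 libraries in 1 model of the 4 time points, with empirical Bayes and a mean-variance trend. P-values were adjusted by Benjamini-Hochberg over all genes tested, and calls need an adjusted p under 0.05. Median-of-ratios scaling divided each library by the median ratio of its genes to their geometric means. The model was tested on simulated data first. A bait was given to a gene if it held a transcript start of GENCODE M21 (GRCm38), which matched 100% of the table's genes. Motifs were searched in RefSeq promoters (GRCm38.p6) with Python 3.11.15, pandas 2.3.3 and numpy 2.4.6.

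The members and gene lists were chosen with earlier results of these data known. Members described in full are the one with the lowest and the one with the highest log2 fold change at 48h in each role. From the 2 other lists, the 2 largest called increases and decreases at 48h are named, with Rrm2b, Tk2, Top2b and Samhd1. Other settings tried were pseudocounts of 0.01 and 1, a mean of 1 TPM or no filter, 3 other scalings, no trend, a fit to the compared libraries alone, a replicate block, fold change thresholds, single libraries left out, other bait rules and other motif windows.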

Additional observations from a re-analysis of the deposited data

How the results depend on the processing

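Counts of members lower at 12h, 48h and 48h against 12h stayed within 1.5 times of 40, 46 and 39 under every setting tried except a log2 fold change beyond 2 in addition, which left 21 at 12h and 15 for 48h against 12h. With 1 library or 1 replicate number left out they ran from 31 to 41, from 43 to 46 and from 30 to 40. The count of members higher at 1h, 7, was the least stable. It was 16 with a pseudocount of 1 or with only the libraries compared in the fit, 1 with a log2 fold change beyond 1 and 0 with one beyond 2. It was 0 after median-of-ratios scaling, quantile normalization or rescaling without the 20 most abundant genes, and it ran from 0 to 8 with libraries left out. Under median-of-ratios scaling 1 member was lower at 1h and 1 higher at 48h against 12h, the latter also with quantile normalization. The cause of these shifts was not tested, apart from the scaling, which moves the median of all genes by construction.

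Correlations of same-numbered deviations between time points ran from -0.012 to 0.257 and were not over 0.1 for every pair, so the numbers were not taken to pair the samples. For replicate 3 they were over 0.1 in 5 of 6 pairs of time points, and in 6 of 6 its libraries correlated best with their own number, against 3 of 6 for replicate 1 and 2 of 6 for replicate 2. This is a hint from the data that the replicate 3 libraries share a source of spread. With the replicate number as a block, 5 members were higher at 1h, 40 lower at 12h, 46 at 48h and 39 at 48h against 12h. With the block and median-of-ratios scaling, chosen after seeing the data, 0 were higher and 1 lower at 1h, and 1 was higher at 48h against 12h.

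After median-of-ratios scaling 31 members changed sign at 1h, 3 at 12h (Orc1, Orc3 and Orc4), 0 at 48h and 3 at 48h against 12h (Gins4, Pold3 and Rfc2). Of these Rfc2 was called with its turned sign (0.66), and no other was. The 12h value of Orc4 (0.08) was -0.25 after median-of-ratios scaling with or without the block, -0.13 without the 20 most abundant genes and -0.21 with quantile normalization, and with libraries left out it ran from -0.11 to 0.32. At 48h (0.14) it ran from -0.18 to 0.57 with libraries left out. Fen1 and Tyms at 1h, called higher on the deposited TPM, were -0.04 and -0.11 after that scaling, also with the block. Tyms at 12h (-0.02) reached 0.13 with libraries left out and was -0.35 after median-of-ratios scaling. None of the turned values of Orc4, Fen1 and Tyms passed the test.

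The median number of interactions per member was 5, 7, 4 and 4 without contacts between 2 baits, and 2 at 0h with a score of at least 10. The share of promoters with an E2F motif was 16.3% in the 150 bases before the start alone and 57.1% with the shorter core.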
